A study of Homo sapiens with 17 samples.

Results

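The clade B serpins are described here across 17 arrays of NKYS cells, an established line derived from a human natural killer/T-cell lymphoma. The 9 genes considered were SERPINB1, SERPINB2, SERPINB3, SERPINB5, SERPINB6, SERPINB7, SERPINB8, SERPINB9 and SERPINB13, and 7 of them were measured among 18377 genes with a probe set of their own. A gene counted as measured where the platform annotation gives a probe set that symbol and no other, and each of the 7 had 1 such probe set. SERPINB2 and SERPINB6 had none under that rule and were not analysed here. The genes were chosen by their siRNA values, since SERPINB3 was lower with both siRNAs of the study and SERPINB13 moved in opposite directions. The siRNA values are therefore a description, and only the plasmid arrays carry tests of these genes.

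Serpins fold around an exposed reactive loop that a protease cuts as if it were a substrate, after which inhibitory members trap the enzyme in a dead complex. Clade B holds the serpins without a classical secretion signal, which act mostly inside the cell and guard it against lysosomal or granule proteases that leak into the cytosol. Human genes of the clade lie in one cluster on chromosome 18 and another on chromosome 6. Some of the chromosome 18 genes, such as SERPINB3 and SERPINB13, are best known from squamous epithelium. SERPINB1, SERPINB6 and SERPINB9 are known from blood cells and other tissues.

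All arrays came from the 1 line, grown with 100 IU/mL IL-2, a cytokine whose receptor signals through the kinase JAK3. An electroporation device delivered siRNAs or plasmids. JAK3 siRNA was on 2 arrays and its control siRNA on 2 more, and 2 arrays had siRNA against EZH2, the methyltransferase of the Polycomb repressive complex, each titled with a control siRNA array of its own. The plasmid arrays comprised 2 vector controls, 6 with full-length EZH2 (2 each titled wild type, Y244D and Y244A, the latter pair carrying aspartate or alanine in place of a tyrosine) and 1 with EZH2 lacking its catalytic SET domain. Titles number the plasmid arrays 1 and 2, called set 1 and set 2 below, with 4 arrays in each; the second wild-type title has no number and was placed by its transfection field. For the 3 full-length arrays of set 2 the transfection field names other constructs than the title does, and the SET deletion array belongs to no set. The labels name no separate cultures within a group, so a p-value here rests on array-to-array spread that may be technical. The study compared JAK3 and EZH2 manipulations with their controls.

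JAK3 intensity was 138 and 137 with its siRNA against 323 and 326 in its controls, and EZH2 intensity was 501 and 489 with its siRNA against 926 and 691. On the plasmid arrays EZH2 read 259 and 350 with vector and from 803 to 2221 with an EZH2 plasmid. The median signal of an array was 60.3 to 62.5 on siRNA arrays and 64.5 to 73.0 on plasmid arrays, and the lower quartile was 32.4 to 32.9 and 33.7 to 38.6. The interquartile range of log2 intensity was narrower on the plasmid arrays, 1.79 to 2.18 against 2.27 to 2.33. The deposited table has no detection call, so a gene is called dim here where its signal lay below the median of its array, and very dim where it lay below the lower quartile. Of 10 natural killer cell markers, 2 (GNLY and CD2) were dim on every array, and CD3D, CD3E and CD3G of the T-cell list were dim on every array. Fewer cells of a type and less RNA per cell cannot be told apart in such bulk samples.

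On chromosome 18 the RefSeq order of the clade is SERPINB5, SERPINB12, SERPINB13, SERPINB4, SERPINB3, SERPINB11, SERPINB7, SERPINB2, SERPINB10 and SERPINB8, and on chromosome 6 it is SERPINB1, SERPINB9 and SERPINB6. SERPINB3 and SERPINB4 are near-identical neighbours, the squamous cell carcinoma antigens, and how far their probe sets read each other could not be separated here. All 9 genes of the group and 11 of 13 clade genes had a promoter entry. The 250 bases before the listed start are printed for the chromosome 18 genes whose signals moved (SERPINB3, SERPINB4, SERPINB13) and for SERPINB1, the measured chromosome 6 gene above the array median, to show how alike or unlike they are. They are RefSeq sequences of GRCh38.p14, 5′ to 3′ on the gene's strand, with CG dinucleotides in capitals: SERPINB3 at chr18:63661894-63662143 (minus strand), SERPINB4 at chr18:63644257-63644506 (minus strand), SERPINB13 at chr18:63587093-63587342 (plus strand) and SERPINB1 at chr6:2841864-2842113 (minus strand).
SERPINB3: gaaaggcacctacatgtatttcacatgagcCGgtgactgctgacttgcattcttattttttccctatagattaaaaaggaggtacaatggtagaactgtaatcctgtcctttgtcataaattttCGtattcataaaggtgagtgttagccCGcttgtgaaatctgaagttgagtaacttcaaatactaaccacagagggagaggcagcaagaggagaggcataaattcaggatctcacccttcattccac
SERPINB4: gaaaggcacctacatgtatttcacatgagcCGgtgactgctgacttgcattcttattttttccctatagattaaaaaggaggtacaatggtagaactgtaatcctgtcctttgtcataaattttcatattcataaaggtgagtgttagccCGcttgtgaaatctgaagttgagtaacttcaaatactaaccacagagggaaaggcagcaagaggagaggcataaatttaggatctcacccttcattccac
SERPINB13: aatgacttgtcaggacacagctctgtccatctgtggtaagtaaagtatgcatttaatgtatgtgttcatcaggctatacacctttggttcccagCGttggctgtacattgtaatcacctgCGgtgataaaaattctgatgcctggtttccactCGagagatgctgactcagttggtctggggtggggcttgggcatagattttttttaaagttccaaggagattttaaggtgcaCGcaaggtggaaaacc
SERPINB1: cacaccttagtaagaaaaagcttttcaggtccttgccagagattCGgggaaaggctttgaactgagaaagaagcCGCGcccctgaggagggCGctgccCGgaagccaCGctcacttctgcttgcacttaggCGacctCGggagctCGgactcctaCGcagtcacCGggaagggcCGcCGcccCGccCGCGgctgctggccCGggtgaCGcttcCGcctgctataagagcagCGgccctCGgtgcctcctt

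The SERPINB3 and SERPINB4 sequences were identical at 247 of 250 positions and differed by G126A, G201A and C228T, written as SERPINB3 base, position from the 5′ end of the printed sequence, SERPINB4 base. The G126A change falls in a CG, so SERPINB3 held 3 of these dinucleotides and SERPINB4 held 2. SERPINB13 held 4. SERPINB1 held 21 and SERPINB9, the other measured chromosome 6 gene, held 27, whereas the median over 35116 promoters was 11. Of all promoters, 22.9% had fewer CG than SERPINB3, 29.3% fewer than SERPINB13, 69.8% fewer than SERPINB1 and 82.3% fewer than SERPINB9. Among the measured genes of chromosome 18 that were dim, SERPINB5 held 13, SERPINB8 held 7, and the 3 listed starts of SERPINB7 held 1, 0 and 0. SERPINB2, which has no signal here, held 0. SERPINB6 had 4 starts with 26, 34, 34 and 3.

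**Figure D1:**
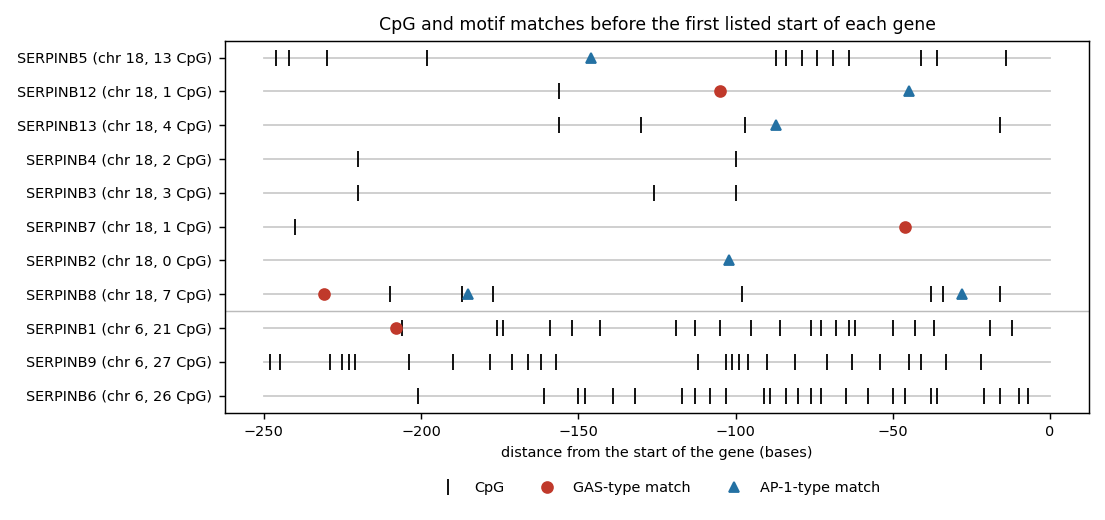
Positions of CG dinucleotides (black ticks) and of matches to TTCNNNGAA (red circles, GAS-type) and TGANTCA (blue triangles, AP-1-type) in the 250 bases before the first listed start of each clade B gene with an entry; the horizontal axis is the distance from the start in bases. SERPINB1, SERPINB9 and SERPINB6 on chromosome 6 carry 21, 27 and 26 CG, and the chromosome 18 genes carry between 0 and 13.

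Both motifs read the same on either strand, and each occurred in 6.57% of all promoters of this length. TTCNNNGAA, the spaced palindrome that STAT factors bind, matched 208 bases before the start of SERPINB1, 231 before that of SERPINB8 and 46 before the first start of SERPINB7. TGANTCA, the core that AP-1 factors bind, matched 87 bases before the start of SERPINB13, 102 before SERPINB2, 146 before SERPINB5, and 185 and 28 before SERPINB8. It also matched 154 and 39 bases before the second listed start of SERPINB7, 206 and 45 before the third, and, outside the 9 genes, 45 before the first start of SERPINB12, where TTCNNNGAA matched at 105. Neither sequence occurred in the window of SERPINB3 or SERPINB4. A match is a description of letters and was not tied to any value below.

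SERPINB3, which inhibits lysosomal cysteine proteases such as cathepsin L, read 305 and 317 with JAK3 siRNA against 520 and 538 in the controls. With EZH2 siRNA it read 225.5 in the first pair against 380.2 in its control, and 374 in the second against 441.5. The 4 siRNA-treated arrays were each below their controls, and the second EZH2 siRNA array came close to the control of the first pair. On the plasmid arrays SERPINB3 read 54.9 and 75.4 with vector, 53.0 and 82.6 with Y244D, 122 and 62.0 with Y244A, 82.1 and 69.4 with wild type, and 54.5 with the SET deletion. It was dim on 4 of the 9 plasmid arrays and on 0 of the 8 siRNA arrays.

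SERPINB13, a cathepsin inhibitor of the same cluster also called headpin, read 415.5 and 401 with JAK3 siRNA against 716 and 670 in the controls. With EZH2 siRNA it read 620 against 508 in the first pair and 749.5 against 537 in the second. It was thus lower than both controls with JAK3 siRNA and higher than either paired control with EZH2 siRNA. On the plasmid arrays it read 107 and 249 with vector, 88.0 and 218 with Y244D, 178 and 167 with Y244A, 205 and 197 with wild type, and 136 with the SET deletion. It was above the array median on every array.

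SERPINB4, which is not among the 9 but lies between SERPINB13 and SERPINB3 and inhibits serine proteases such as cathepsin G, read 441 and 423 with JAK3 siRNA against 798 and 791 in the controls. With EZH2 siRNA it read 255 against 256 in the first pair and 365 against 493 in the second. The EZH2 controls themselves differed by 0.95 in log2, more than either siRNA difference of that gene in the EZH2 arm. On the plasmid arrays the lowest, median and highest values of SERPINB4 were 45.6, 92.8 and 192.

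SERPINB1, which inhibits neutrophil elastase and related granule proteases, read 633 at the lowest, 662 at the median and 682 at the highest over the 8 siRNA arrays. This was a 1.08-fold range, and 98% of the genes tested had a wider one there. Over the 9 plasmid arrays the same gene ran from 263 with the first vector array through a median of 408 to 646 with the second Y244D array, a 2.46-fold range. It was above the array median throughout.

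The remaining 4 measured genes were dim on 17 of 17 arrays. SERPINB5, known as maspin and without protease inhibition, read 26.4 to 30.4, and SERPINB7, known from kidney mesangium and epidermis, read 26.2 to 29.6, both below the lower quartile of each array. SERPINB8, an inhibitor of furin, read 35.3 to 44.0. SERPINB9, the granzyme B inhibitor that cytotoxic lymphocytes carry against their own granules, read 34.4 to 38.9 on siRNA arrays and 38.5 to 49.5 on plasmid arrays. SERPINB10, SERPINB11 and SERPINB12 were also dim on every array. Such signals give no ground to say whether the transcript was present or to read a change from it.

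**Figure D2:**
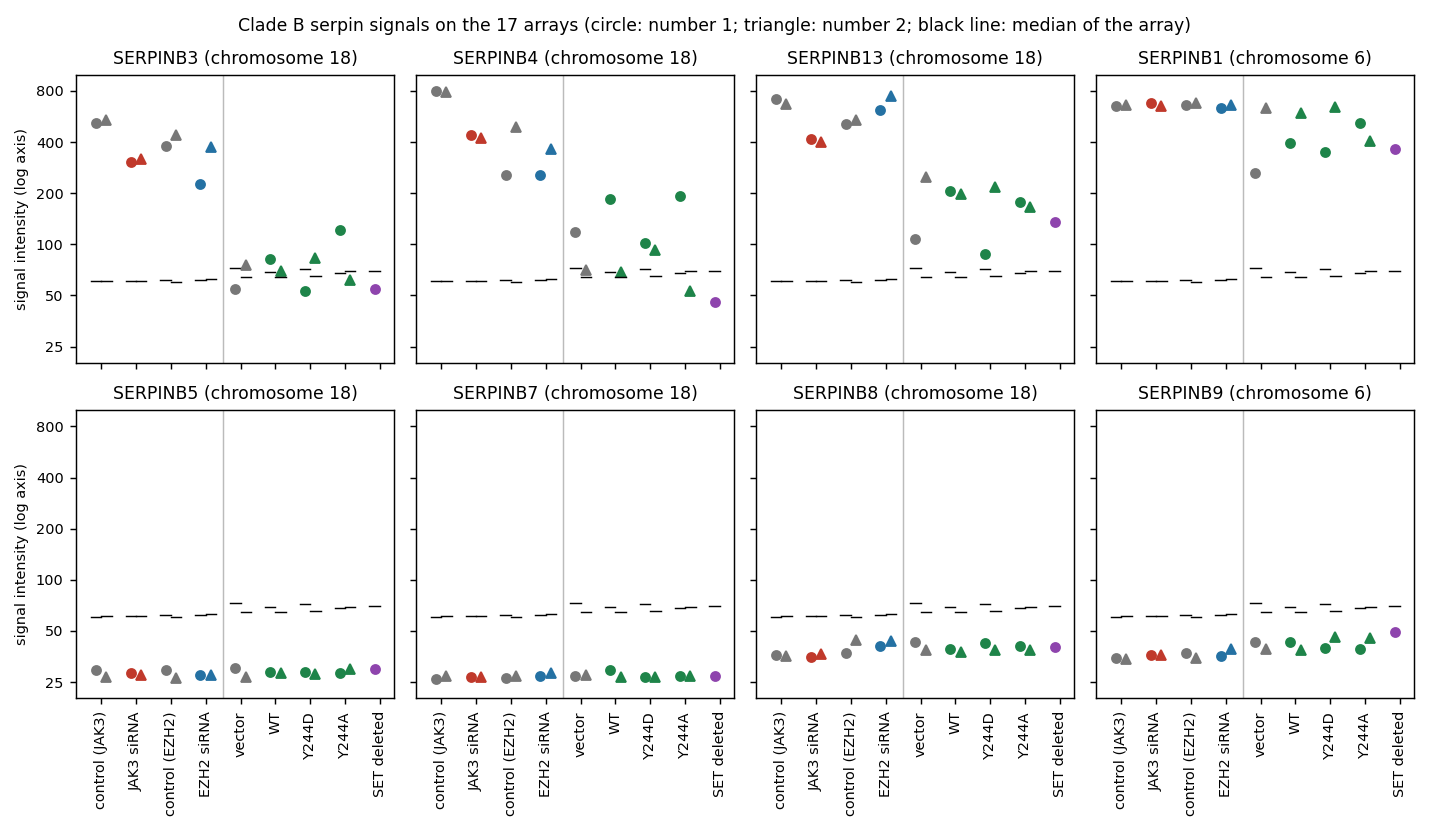
Signal intensity (log axis) of the 7 measured clade B genes and SERPINB4 on the 17 arrays, by treatment; circles are arrays numbered 1, triangles those numbered 2, and black lines the median signal of each array. SERPINB3, SERPINB4 and SERPINB13 lie between 225.5 and 798 on siRNA arrays (left of the grey line) and between 45.6 and 249 on plasmid arrays, SERPINB1 spans 263 to 682, and the 4 genes of the lower row lie below the median on every array.

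With JAK3 siRNA, SERPINB3 was 1.70-fold lower (log2 difference -0.77, with -0.77 and -0.76 for the arrays numbered 1 and 2), SERPINB13 was 1.70-fold lower (-0.76, with -0.79 and -0.74) and SERPINB4 was 1.84-fold lower (-0.88, with -0.86 and -0.90). Each pair of JAK3 siRNA arrays lay below both of its controls, and for SERPINB3 and SERPINB13 also below both controls of the EZH2 arm. The chromosome 6 gene SERPINB1 differed by 0.02, and the dim genes SERPINB5, SERPINB7, SERPINB8 and SERPINB9 by -0.01, 0.01, 0.00 and 0.06. Outside the 9, the dim chromosome 18 genes SERPINB10, SERPINB11 and SERPINB12 differed by 0.10, -0.44 and 0.03. SERPINB11 read 30.7 and 32.3 against 40.7 and 44.6 in the controls, and no change is read from signals that dim. Of the 4 genes of the group that passed the filter on low signal (SERPINB1, SERPINB3, SERPINB8 and SERPINB13), 2 were called lower by limma, against 0.76% of 14466 genes called lower, 0.622% called higher and 1.38% called in either direction; since this contrast chose the genes, nothing is read from that count. Among all genes tested, 27.1% had both siRNA arrays below both controls, as SERPINB3 and SERPINB13 did, and 21.2% had both above.

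With EZH2 siRNA, SERPINB3 was 1.41-fold lower (log2 difference -0.50, with -0.75 in the first pair and -0.24 in the second) and SERPINB13 was 1.31-fold higher (0.38, with 0.29 and 0.48). SERPINB4 differed by -0.22, with -0.01 and -0.43, and SERPINB1 by -0.06. SERPINB5, SERPINB7, SERPINB8 and SERPINB9 differed by -0.02, 0.05, 0.07 and 0.05. SERPINB10, SERPINB11 and SERPINB12, also dim, differed by 0.275, -0.05 and -0.04. Each pair had SERPINB3 down and SERPINB13 up, and the size for SERPINB3 was uneven between the pairs. Of the same 4 genes 1 was called higher and 1 lower, against 0.373% called higher, 0.567% called lower and 0.94% in either direction over all genes; this contrast chose the genes too, and nothing is read from the counts, which went to 0 without the pairing, without either array of the first pair, without the filter or with array weights. Both pairs pointed down for 28.3% of genes and up for 23.5%.

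Between the arms, the JAK3 siRNA difference minus the EZH2 siRNA difference was -1.15 for SERPINB13, -0.27 for SERPINB3, -0.66 for SERPINB4 and 0.07 for SERPINB1. All 3 chromosome 18 values were negative, for SERPINB13 from a lower signal in one arm and a higher one in the other. Leaving out 1 array in turn gave -1.24 to -1.05 for SERPINB13 and -0.53 to -0.01 for SERPINB3, both ends of the latter from leaving out an EZH2-arm array. Of the 4 genes that passed the filter, 1 was called lower in this contrast, against 0.228% of all genes lower, 0.138% higher and 0.366% in either direction, and nothing is read from it. The controls of the arms also differed: those of the JAK3 arm were higher by 0.37 for SERPINB3, 0.41 for SERPINB13 and 1.16 for SERPINB4, and lower by 0.04 for SERPINB1.

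**Figure D3:**
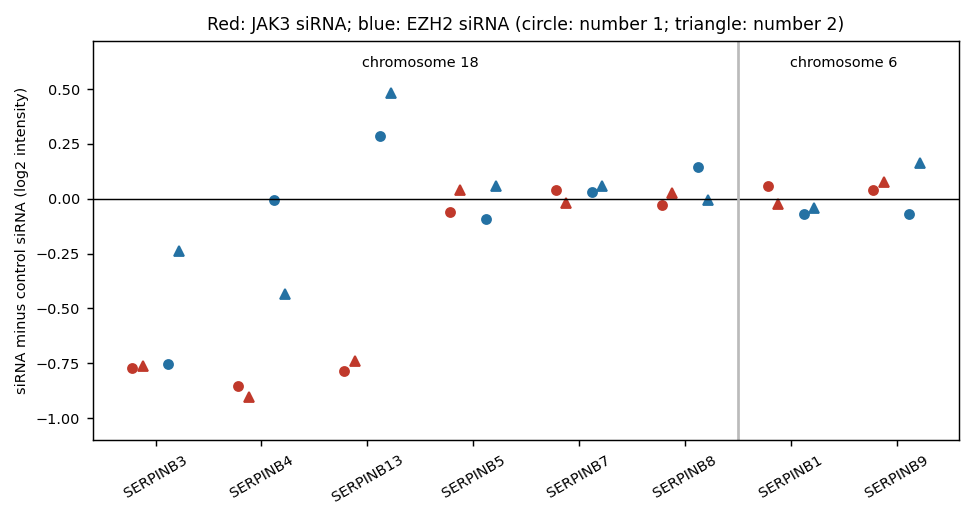
Difference in log2 intensity, siRNA minus control siRNA, for each measured clade B gene and SERPINB4; red marks are JAK3 siRNA and blue marks EZH2 siRNA, circles number 1 and triangles number 2. JAK3 siRNA marks of SERPINB3, SERPINB4 and SERPINB13 lie between -0.90 and -0.74, the EZH2 siRNA marks of SERPINB13 lie at 0.29 and 0.48, and SERPINB1 stays between -0.07 and 0.06.

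SERPINB3, SERPINB4 and SERPINB13 varied more over the siRNA arrays than most genes, and SERPINB1 less. The highest signal was 2.39 times the lowest for SERPINB3, 1.87 times for SERPINB13 and 3.13 times for SERPINB4, and 0.29%, 1.15% and 0.083% of the genes tested had a wider range. The median gene had a 1.21-fold range there. As the siRNA contrasts are part of this spread, it describes the genes chosen and tests nothing.

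The siRNA arrays as a whole read higher than the plasmid arrays for the same chromosome 18 genes. The median siRNA signal was 5.43 times the median plasmid signal for SERPINB3, 3.24 times for SERPINB13 and 4.65 times for SERPINB4, against 0.98 times for the median gene. A larger drop on the plasmid arrays was seen in 0.145%, 1.36% and 0.312% of genes. The 8 siRNA and 9 plasmid values of these 3 genes did not overlap; among all genes 20.5% did not overlap with the plasmid arrays lower and 10.2% with the plasmid arrays higher. SERPINB1 was 1.62 times higher by its medians, with 15.5% of genes dropping more, and its ranges overlapped. No test was run, since the kind of nucleic acid cannot be told apart from whatever else separated the arrays, such as their narrower signal range.

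On the plasmid arrays, which had no part in choosing the genes, limma called 0 of 14410 genes between full-length EZH2 and vector. EZH2 itself was among the genes not called, although it read 259 and 350 with vector and 803 to 2221 with full-length EZH2. The absence of a clade B call therefore does not show that these genes stayed unchanged. Against vector, SERPINB3 differed by 0.24 ± 0.28 in log2 (SE; 95% interval -0.39 to 0.86), SERPINB13 by 0.05 ± 0.38 (-0.79 to 0.89), SERPINB1 by 0.21 ± 0.34 (-0.54 to 0.95), SERPINB9 by 0.03 ± 0.14 (-0.28 to 0.33) and SERPINB4 by 0.18 ± 0.47 (-0.88 to 1.23), over 6 arrays against 2. Each interval holds 0, and for SERPINB3, SERPINB13, SERPINB1 and SERPINB4 it also holds changes larger than 1.5-fold, so in this fit, which has no term for the plasmid set, a change of that size could not be told from none.

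In limma's test 0 of the 4 genes of the group that passed the filter (SERPINB1, SERPINB3, SERPINB9 and SERPINB13) were called, with adjusted p = 1 for each, against a background of 0% of 14410 genes; 10 genes and 0 of these had an unadjusted p under 0.05. The median over the 4 was 0.13 and that over all genes 0.01, with 4 of 4 above 0 against 53.6% of all genes. Both vector arrays bear on the direction: without the first, SERPINB1 differed by -0.43 and SERPINB13 by -0.56, and without the second by 0.85 and 0.66. Each of these values sets a vector array of 1 set against full-length arrays of both sets, so the difference between sets enters it. The first vector array also had the narrowest interquartile range of the plasmid arrays, 1.79, and the second the widest, 2.18. Y244D minus Y244A, by title, was -0.39 ± 0.37 for SERPINB3, -0.31 ± 0.49 for SERPINB13, 0.04 ± 0.47 for SERPINB1, 0.02 ± 0.22 for SERPINB9 and -0.06 ± 0.65 for SERPINB4, 2 arrays each. Here limma again called 0% of genes, 0 reached an unadjusted p under 0.05, and with the transfection field in place of the title it called 0 genes with 183 at an unadjusted p under 0.05. Read by that field, SERPINB1 differed by -0.56, the opposite direction, and SERPINB3 by -0.68, SERPINB13 by -0.63, SERPINB4 by -0.64 and SERPINB9 by 0.14, with adjusted p = 0.803 in limma for each.

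Between the plasmid sets many genes were called, and the clade B genes pointed in different directions. SERPINB1 was higher in set 2 by 0.60 ± 0.20 (1.52-fold; adjusted p = 0.0377 in limma) and SERPINB4 was lower in set 2 by a log2 difference of -1.04 ± 0.22 (adjusted p = 0.00618). SERPINB4 was 118, 102, 192 and 186 in set 1 and 70.9, 92.8, 53.2 and 68.5 in set 2, so that its sets did not overlap. The share of all genes whose sets did not overlap was not counted, so this does not set SERPINB4 apart. SERPINB13 differed by 0.60 ± 0.24 (adjusted p = 0.0683), SERPINB3 by -0.03 ± 0.23 (adjusted p = 0.917) and SERPINB9 by 0.03 ± 0.10 (adjusted p = 0.822), and these 3 were not called. In this contrast 40.6% of 14410 genes were called, 23.7% higher and 16.9% lower, so 1 call among the 4 genes of the group is not above that background. Median centring changed the split of all calls from 3414 higher and 2435 lower to 3522 and 1138.

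Over the alternatives run, the adjusted p of SERPINB1 in this contrast ranged from 0.000152 to 0.537 and was under 0.05 in 6 of 17. It was not called without any one of the vector, Y244D or wild-type arrays of either set, nor with the construct as a replicate block (adjusted p = 0.107). SERPINB4 was called in 17 of 17, with adjusted p from 6.97e-05 to 0.0353 in limma and differences from -1.72 to -0.83. How many other genes were called in every alternative was not counted. SERPINB3 changed direction with the setting: 0.21 without the first Y244A array, whose 122 was its highest plasmid signal.

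**Figure D4:**
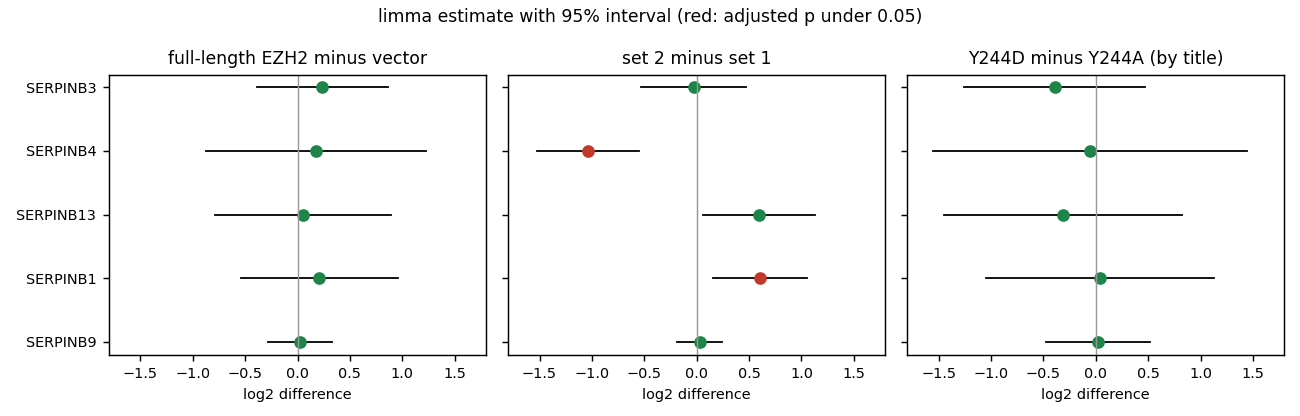
Log2 differences (points) with 95% intervals (lines) from limma for the clade B genes tested on the plasmid arrays, in 3 comparisons; red marks an adjusted p under 0.05. In the comparison of sets SERPINB4 lies at -1.04 and SERPINB1 at 0.60, both red. No gene is red in the comparisons with vector or between the alleles, where limma called 0% of all genes.

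SERPINB1 and SERPINB13 followed the width of the signal distribution of the plasmid arrays. SERPINB1 correlated with the interquartile range over the 9 arrays with r = 0.975 (exact permutation p = 1.65e-05, 0.000116 after adjustment over 7 relations; rho = 0.950, p = 0.000353), and with r = 0.966 without the 2 arrays farthest from the median range, both vector arrays. SERPINB13 correlated with r = 0.877 (exact permutation p = 0.00163, adjusted 0.00571; rho = 0.850, p = 0.00607) and r = 0.795 without the same 2 arrays. SERPINB3 gave r = 0.582 (exact permutation p = 0.0956, adjusted 0.134; rho = 0.633) and SERPINB4 gave r = -0.091 (exact permutation p = 0.81, adjusted 0.945; rho = -0.200). With the range as a covariate, an alternative added after seeing the data, the difference between sets was -0.13 for SERPINB1, -0.16 for SERPINB13, -0.77 for SERPINB3 (adjusted p = 0.0121 in limma) and -1.72 for SERPINB4. Under that setting SERPINB1 and SERPINB13 were thus no longer higher in set 2, and SERPINB3 was lower there as SERPINB4 was. A set holds 4 arrays, too few for a correlation within it. The range is computed from all probe sets of the same arrays, and how many other genes follow it as closely was not counted. It ran from 1.79 to 2.03 in set 1 and from 1.99 to 2.18 in set 2, whereas the permutation took all 9 arrays as exchangeable. These p-values therefore do not set SERPINB1 or SERPINB13 apart from other genes.

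**Figure D5:**
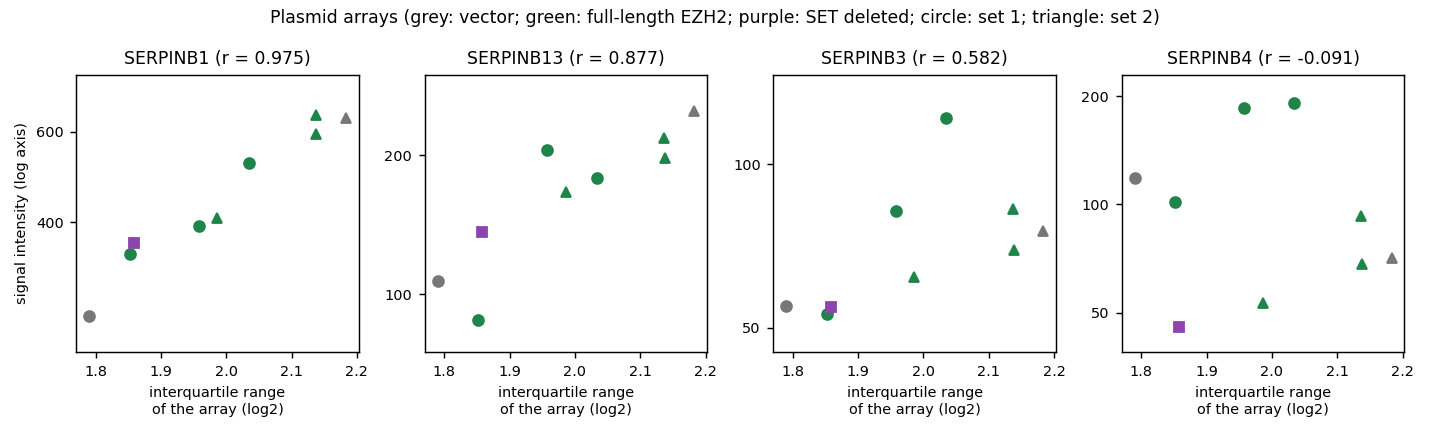
Signal intensity (log axis) of SERPINB1, SERPINB13, SERPINB3 and SERPINB4 on the 9 plasmid arrays against the interquartile range of log2 intensity of each array; grey is vector, green full-length EZH2, purple the SET deletion, circles set 1 and triangles set 2. SERPINB1 (r = 0.975) and SERPINB13 (r = 0.877) rise along the axis, and SERPINB4 (r = -0.091) does not.

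Of SERPINB3, SERPINB4 and SERPINB13, no pair had an adjusted exact permutation p under 0.05 over the 9 plasmid arrays, which had no part in choosing the genes. SERPINB3 and SERPINB13 had r = 0.647 over the 9 plasmid arrays (exact permutation p = 0.0584, adjusted 0.134; rho = 0.767, p = 0.0214), and r = 0.888 (exact permutation p = 0.00694, n = 7) without the Y244A and Y244D arrays of set 1. Leaving out the first Y244A array alone gave r = 0.897 (exact permutation p = 0.00332). With all 9 arrays kept, r was 0.647 to 0.722 under 3 other ways of processing. Of 13 alternatives in all, 4 had an exact permutation p under 0.05. These p-values were not adjusted and, like those for the interquartile range, took the arrays as exchangeable across the sets. SERPINB3 and SERPINB13 themselves had r = 0.582 and 0.877 with that range, and its part in their correlation was not tested. SERPINB3 and SERPINB4 had r = 0.602 (exact permutation p = 0.0844, adjusted 0.134; rho = 0.467) and r = 0.488 without the same pair of arrays. SERPINB4 and SERPINB13, which are adjacent genes, had r = 0.007 (exact permutation p = 0.986; rho = 0.017). Over the 8 siRNA arrays, as a description, r was 0.414 for SERPINB3 with SERPINB13 and 0.788 for SERPINB3 with SERPINB4.

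Genes were ranked by how alike they were to SERPINB3, using the smaller of r over the 8 siRNA arrays and r over the 9 plasmid arrays among 14433 genes. ENDOD1 led with 0.924, followed by SEC63 with 0.883, PNP with 0.878, LSM12 with 0.875 and DDX19B with 0.856. SERPINB4 came at rank 633 with 0.602 and SERPINB13 at rank 1872 with 0.414. For SERPINB13 the leading genes were IRAK1BP1 with 0.868, FMNL2 with 0.854, OXR1 with 0.829, UBAC2 with 0.826 and GAB3 with 0.824, and SERPINB3 came at rank 627. No clade B gene was among the 5 most alike to either. With 5 places among 14433 genes that absence says little, and the siRNA arrays that chose the genes entered the ranking.

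Genes around the clusters and the proteases that clade B serpins inhibit were examined as lists, chosen with earlier results of these data known. Of 10 listed neighbours on chromosome 18, 8 were tested; with JAK3 siRNA 1 rose, PHLPP1, a phosphatase of the kinase AKT, by 0.38 ± 0.08 (adjusted p = 0.029 in limma), and the list had a median of -0.09 against -0.01 for all genes. With the mean of its probe sets PHLPP1 differed by 0.20 (adjusted p = 0.255), and over 13 alternatives its adjusted p was 0.00347 to 0.384; the call was lost when any single array of the JAK3 arm was left out. With EZH2 siRNA 0 of 8 were called, the median was 0.00, and the gene of smallest p, VPS4B, differed by 0.11 (adjusted p = 0.558). Of 16 listed neighbours on chromosome 6, 13 were tested and 0 were called with either siRNA, with medians of 0.00 and 0.01; DUSP22 differed by 0.21 (adjusted p = 0.301) with JAK3 siRNA and BPHL by 0.26 (adjusted p = 0.141) with EZH2 siRNA. At the shares called over all genes (1.38% with JAK3 siRNA and 0.94% with EZH2 siRNA) lists of this size would hold few calls or none, so these counts are not results about the neighbours.

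Of 25 listed target proteases, 18 were tested and limma called 0 with JAK3 siRNA, 0 with EZH2 siRNA and 0 with full-length EZH2 against vector, where 1.38%, 0.94% and 0% of all genes were called. With JAK3 siRNA the inflammatory caspase CASP4 differed by -0.32 (adjusted p = 0.0642), CASP1 by -0.26 (adjusted p = 0.3) and the cathepsin CTSK by 0.25 (adjusted p = 0.227). With EZH2 siRNA GZMB, the target of SERPINB9, differed by 0.41 ± 0.15 (adjusted p = 0.193) and CTSS, a target of SERPINB3, by 0.23 (adjusted p = 0.311). Between plasmid sets 2 of the 18 were called higher and 8 lower, against the 23.7% and 16.9% of all genes. Of 21 serpins of other clades, 10 were tested and 1 was called lower with JAK3 siRNA, against 0.76% of all genes. This was SERPINE2, the secreted inhibitor of thrombin and plasminogen activators, at -0.73 ± 0.08 (adjusted p = 0.000711 in limma, 1.17e-05 to 0.025 over 13 alternatives). SERPINE2 differed by 0.20 (adjusted p = 0.259) with EZH2 siRNA, and the difference between the siRNAs was -0.93 ± 0.12 (adjusted p = 0.00354, 0.00123 to 0.0993 over 17 alternatives). With EZH2 siRNA and with full-length EZH2 against vector 0 of the 10 were called, where the shares over all genes were 0.94% and 0%. Between the sets 0 were called higher and 5 lower, against 23.7% and 16.9% of all genes. With so many genes called between the sets, nothing is read from that count.

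The squamous epithelium list was set beside these genes because some of the chromosome 18 serpins, SERPINB3 and SERPINB13 among them, are known from that tissue. Of its 10 markers 7 were measured, and 6 (KRT5, KRT1, KRT10, DSG3, IVL and SPRR1B) were dim on all 17 arrays, leaving KRT14. The summed signal of the 7 was 331 to 342 with JAK3 siRNA against 342 to 355 in its controls, 337 to 339 with EZH2 siRNA against 329 to 344, and 348 to 464 on plasmid arrays. KRT14, a keratin of the basal layer, read 94.4 to 101 with JAK3 siRNA against 99 to 117 in its controls, and 93.3 to 97.1 with EZH2 siRNA against 89.8 to 98.4. Natural killer cell markers summed to 9541 to 9625 with JAK3 siRNA against 9341 to 9411 in its controls. Of the 10 tested, 4 were above 0, and the median was -0.03 against -0.01 for all genes. In limma 2 were called lower, KLRD1 (-0.47 ± 0.08, adjusted p = 0.00991) and NCAM1 (-0.36 ± 0.07, adjusted p = 0.0298), against 0.76% of all genes. Both calls were lost when any single array of that arm was left out. With EZH2 siRNA the same list summed to 11030 to 11450 against 7191 to 10500 in its controls, with 9 of 10 above 0, a median of 0.17 against 0.00 for all genes, and 0 called; the gene of smallest p was PRF1, the pore-forming perforin, at 0.47 ± 0.10 (adjusted p = 0.0501). The part of these markers in the values of SERPINB3 and SERPINB13 was not tested. Of the T-cell, B-cell and monocyte lists 0 of 3, 0 of 3 and 0 of 5 tested genes were called with either siRNA, where the shares over all genes were 1.38% and 0.94%.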

How the data were processed

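The 17 arrays hold NKYS RNA that, per the labels' protocols, was isolated with TRIzol and a column; 100 ng was labelled with biotin. The authors deposited a table of linear signal intensity for 28869 probe sets. Background correction, normalization and probe summarisation are not given in the sources used here. Beyond log2, the main fits changed nothing in the values. Arrays have no read depth, so their number limits the precision. Of the probe sets, 19310 carried 1 gene symbol, 1752 several and 7807 none; the probe set with the highest mean stood for each gene, and 0 symbols changed when set against RefSeq.

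Groups came from titles. Fits used limma 3.58.1 in R 4.3.3 (lmFit and eBayes, two-sided, Benjamini-Hochberg over all genes tested, threshold 0.05), after leaving out genes under the 30th percentile of probe set means, and were tested on simulated data. EZH2 siRNA arrays were fitted with the pair named in their titles as a block; the pairs' deviations correlated with r = -0.086, and those of the JAK3 arm with r = 0.151. Correlations used exact two-sided permutation tests. No 2 arrays were alike: at least 98.66% of probe sets differed between any of them.

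The genes named were all members, JAK3 and EZH2, the 5 genes most like SERPINB3 and SERPINB13, and from each list up to 3 genes that were called or, failing that, had the smallest p. Members and lists were chosen with earlier results of these data known. Alternatives were quantile normalization, median centring, 2 other filters, mean of probe sets, trended and robust eBayes, array weights, blocks, other groupings and leaving out each array, plus the interquartile range as a covariate. Motifs were searched on both strands of RefSeq promoters.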

Additional observations from a re-analysis of the deposited data

Results flagged for a closer look

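SERPINB13 differed in direction between the siRNAs: its JAK3 siRNA difference minus its EZH2 siRNA difference was -1.146 in log2, both JAK3 siRNA arrays being below their controls and both EZH2 siRNA arrays above theirs. This difference was not tested, because the gene was chosen for it. Among the 6 full-length EZH2 arrays, SERPINB13 was 87.98 on the first Y244D array, apart from the other five. SERPINB7 was 29.6 on the first wild-type array, apart from the other full-length arrays and from the other arrays of set 1, and SERPINB9 was 37.23 on the first EZH2 control siRNA array, apart from the other control siRNA arrays. SERPINB7 and SERPINB9 are dim on all arrays. In all 32 sets of values (8 genes in 4 groups) were examined for a sample standing apart, and chance flags about 1 in 20.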

How the results depend on the processing

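Among the main results recomputed, 39 counts of clade B calls stayed within 1.5 times and 12 did not. The 12 were all from the comparison of plasmid sets. Against vector and between the alleles 0% of all genes were called in every setting, so those counts tell nothing about stability. Of the siRNA differences (described, not tested), 85 stayed within the spread of replicates and 1 did not. Filters, eBayes options, replicate blocks and the mean of a single probe set cannot change such a difference. Leaving out 1 array of the JAK3 arm cannot move the JAK3 siRNA difference beyond that spread. Many of the 85 could therefore not have moved. The spread was also wide: SERPINB3 counted as staying at -0.239 and -0.754 against -0.496 with EZH2 siRNA. Between the arms it counted as staying at -0.012 against -0.269. The correlation of SERPINB3 with SERPINB13 stayed on its side of the threshold in 9 and passed it in 4. With the plasmid set as replicate block, limma called 0 genes between full-length EZH2 and vector (54 at an unadjusted p under 0.05), against 0 without it (10); the differences with 95% intervals were then 0.235 (-0.358 to 0.828) for SERPINB3, 0.049 (-0.602 to 0.700) for SERPINB13, 0.207 (-0.322 to 0.736) for SERPINB1, 0.026 (-0.248 to 0.301) for SERPINB9 and 0.175 (-0.405 to 0.756) for SERPINB4. Same-numbered plasmid arrays deviated together with r = 0.850 (vector with wild type), 0.919 (vector with Y244D) and 0.866 (wild type with Y244D). By title, Y244A gave lower values: 0.008 with vector, 0.193 with wild type and 0.117 with Y244D. The main fits had no block for the set, and the intervals with the block were narrower for each of these genes. Between plasmid sets, where 1 gene of the group was called, the number was 0 with quantile normalization, median centring, no filter or the construct as replicate block, 2 with array weights, and 0 to 2 leaving out 1 array; over all genes it was 5849, 1758 with the replicate block, 1587 with the range covariate and 10174 with array weights, and 2645 to 8353 leaving out 1 array. The JAK3 siRNA difference of SERPINB3 was -0.687 after quantile normalization. The correlation of SERPINB3 with SERPINB13 was 0.700 after quantile normalization, 0.722 after median centring, 0.888 without 2 arrays and 0.561 to 0.897 leaving out 1. Directions turned as follows. Between sets: SERPINB3 0.049 (quantile), 0.068 (median centring) and 0.138 (array weights), and -0.186 to 0.213 leaving out 1 array; SERPINB9 -0.01 to 0.07; with the range covariate SERPINB1 -0.128 and SERPINB13 -0.155. Against vector, leaving out 1 array: SERPINB1 -0.432 to 0.847, SERPINB9 -0.049 to 0.102, SERPINB13 -0.562 to 0.66 and SERPINB4 -0.194 to 0.544; SERPINB13 was -0.053 with the range covariate. Y244D minus Y244A: SERPINB1 -0.562 by transfection field and -0.408 to 0.485 leaving out 1 array, SERPINB3 -0.878 to 0.095, SERPINB9 -0.086 to 0.134, SERPINB13 -0.969 to 0.341 and SERPINB4 -0.98 to 0.87. The cause was not tested. For all genes, JAK3 siRNA calls were 200 and 33 to 45 leaving out 1 array of that arm, 94 without the filter, 104 with numbers as replicate block and 699 with array weights; EZH2 siRNA calls were 136, 20 with no replicate block, and 0 without the filter, with array weights or without either array of the first pair, and 1511 without either array of the second. The low signals of SERPINB5, SERPINB7, SERPINB8 and SERPINB9 and groups of 2 arrays limit what could be detected.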
